A study of Mus musculus with 10 samples.

Results

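The Hox genes encode homeodomain transcription factors and lie in 4 clusters of the mouse genome. The 40 protein-coding rows whose symbol was Hox followed by a cluster letter and a paralog number were taken from a brain RNA-seq count table of 54532 genes. They held 39 symbols, since Hoxd4 had 2 rows with different gene identifiers. On GRCm38 the Hoxa cluster (11 rows) spanned chromosome 6 from 52155590 to 52260880, the Hoxb cluster (10 rows) chromosome 11 from 96194316 to 96368256, the Hoxc cluster (9 rows) chromosome 15 from 102921103 to 103036852, and the Hoxd cluster (10 rows) chromosome 2 from 74668310 to 74765142.

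Within a cluster, Hox genes are numbered by their position, and genes with low numbers are switched on further forward along the body axis than genes with high numbers. In the nervous system their expression starts in the hindbrain and continues into the spinal cord. Paralogs 1 to 5 or so mark successive hindbrain levels, and the higher numbers mostly mark spinal levels. The forebrain, the midbrain and the cerebellar cortex hardly use them. HOX proteins bind DNA together with PBX and MEIS cofactors, retinoic acid opens the anterior ends of the clusters in the embryo, and Polycomb and Trithorax complexes keep the genes off or on afterwards.

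All 10 libraries came from littermate Slc20a2 tm1a(EUCOMM)Wtsi homozygous knockout mice, a gene trap line without the phosphate transporter SLC20A2 that develops brain calcification. From the age of 1.5 months the mice were injected intraperitoneally for 12 weeks, 3 times a week, with FTY720 at 0.5 mg/kg (6 mice), a sphingosine-1-phosphate receptor modulator that keeps lymphocytes in lymph nodes, or with the DMSO vehicle as placebo (4 mice). Total RNA was taken from a portion of each perfused brain, the rest of which was fixed. The mouse names carry a treatment letter, F or P, followed by the digit 1 or 3, whose meaning the labels do not give. The digit 1 stood in 4 names (F1-622, F1-624, F1-918 and P1-623) and the digit 3 in 6 (F3-609, F3-612, F3-908, P3-612, P3-904 and P3-907), so that only 1 digit 1 mouse was given placebo. No wild-type or untreated library was analysed here, so the targeted gene, with 89 to 294 counts per library, gives no check of the genotype labels. Between 14772745 and 18303981 reads per library were assigned to genes, and 3 counts corresponded to 0.162 to 0.212 CPM (counts scaled to the TMM effective library size). Libraries are called mice below, since nothing in the labels names more than 1 library per animal.

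The digit in the name went with brain region content. The summed CPM of 6 cerebellar genes (such as Gabra6, a receptor subunit of granule cells, and Pcp2, of Purkinje cells) was 99.1 to 117 in digit 1 mice and 916 to 1005 in digit 3 mice. For 12 genes of hindbrain and spinal cord neurons it was 2.83 to 3.89 against 65.7 to 96.8, and Tlx3 and Slc6a2 of that list were at 0 in every digit 1 mouse. The 5 forebrain genes went the other way, with 282 to 331 CPM in digit 1 mice and 190 to 230 in digit 3 mice. Their part in the Hox results was not tested, and in tissue RNA fewer cells of a type and less RNA per cell cannot be told apart.

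**Figure D1:**
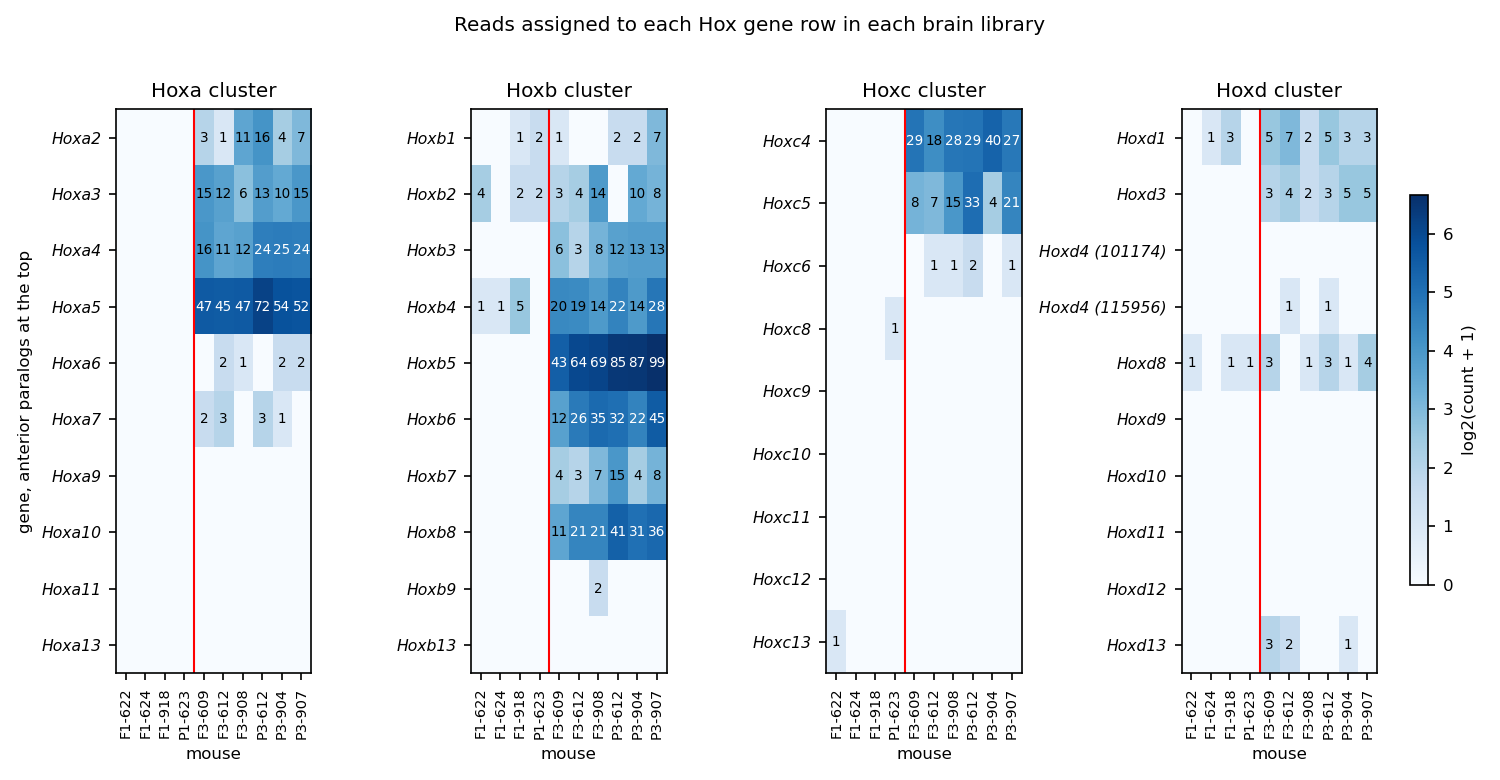
Reads assigned to each of 39 Hox rows (vertical axis, paralogs in rising order within each cluster) in each mouse (horizontal axis), with the count printed where it was above 0 and the colour giving log2(count + 1). The red line divides the 4 digit 1 mice on its left from the 6 digit 3 mice on its right, where counts were highest at paralogs 4 to 8, while paralogs 9 to 13 never had more than 3 counts.

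Hox transcripts were found almost entirely in the digit 3 mice, and from the anterior and middle parts of the clusters. The 40 rows together held 8, 3, 15 and 9 counts in F1-622, F1-624, F1-918 and P1-623. They held 239, 255 and 298 counts in the digit 3 mice given FTY720, and 417, 336 and 412 in P3-612, P3-904 and P3-907. Every digit 3 mouse was above every digit 1 mouse, with a summed level of 18.9 ± 4.14 CPM (SD, n = 6) against 0.557 ± 0.296 CPM (SD, n = 4), a 33.8-fold difference.

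At least 1 read was assigned to 24 of the 40 rows in a digit 3 mouse and to 8 rows in a digit 1 mouse, while 14 rows had 0 counts in all 10 mice. In every digit 3 mouse, 11 rows had 3 counts or more, and 10 of these 11 had 0 counts in every digit 1 mouse. Of the 40 rows, 13 were higher in every digit 3 mouse than in every digit 1 mouse, as were 2.82% of all 54532 rows of the table, many of them without reads. By test, 8 of the 40 rows passed edgeR's quasi-likelihood test between the digits at a Benjamini-Hochberg adjusted p below 0.05, all higher with digit 3. Of all genes tested, 28.4% passed in either direction and 13.9% were higher with digit 3, which out of all 54532 rows were 9.19% and 4.51%. Only these 8 rows passed the filter on low counts, and 7 of them through the digit 3 mice alone, having 0 counts in digit 1, so the count of 8 was read out of 40 rows.

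Upstream sequence from the RefSeq table (GRCm38.p6) is shown for Hoxa5 and Hoxb8, the most posterior Hoxa and Hoxb genes with 3 counts or more in every digit 3 mouse, and for 2 more posterior genes with 0 counts in all 10 mice, Hoxa9 and Hoxd10, to show what stood before genes on either side of the boundary between detected and undetected genes. Each run is the 250 bases before the RefSeq start, 5′ to 3′ on the strand of the gene. Capitals mark TAATTA (a homeodomain core), TGATNNAT (a PBX-HOX pair), TATAAA (the TATA box) and CCAAT on either strand, with overlapping matches merged.
Hoxa5 (chr6:52204588-52204837, minus strand): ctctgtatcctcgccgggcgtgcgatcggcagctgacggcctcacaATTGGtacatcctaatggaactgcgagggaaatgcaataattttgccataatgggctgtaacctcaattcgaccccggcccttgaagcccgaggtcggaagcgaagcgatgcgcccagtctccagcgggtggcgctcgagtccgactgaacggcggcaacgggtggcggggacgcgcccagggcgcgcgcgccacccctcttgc
Hoxb8 (chr11:96281655-96281904, plus strand): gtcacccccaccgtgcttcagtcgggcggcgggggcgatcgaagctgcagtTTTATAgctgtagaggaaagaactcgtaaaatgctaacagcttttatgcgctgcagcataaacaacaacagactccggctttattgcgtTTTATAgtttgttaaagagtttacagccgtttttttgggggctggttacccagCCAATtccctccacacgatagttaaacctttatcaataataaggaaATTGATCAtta
Hoxa9 (chr6:52227371-52227620, minus strand): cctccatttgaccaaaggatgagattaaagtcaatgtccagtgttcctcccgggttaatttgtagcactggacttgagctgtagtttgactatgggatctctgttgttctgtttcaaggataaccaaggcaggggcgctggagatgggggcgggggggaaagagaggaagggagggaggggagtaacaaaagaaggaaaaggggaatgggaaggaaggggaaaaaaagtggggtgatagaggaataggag
Hoxd10 (chr2:74691641-74691890, plus strand): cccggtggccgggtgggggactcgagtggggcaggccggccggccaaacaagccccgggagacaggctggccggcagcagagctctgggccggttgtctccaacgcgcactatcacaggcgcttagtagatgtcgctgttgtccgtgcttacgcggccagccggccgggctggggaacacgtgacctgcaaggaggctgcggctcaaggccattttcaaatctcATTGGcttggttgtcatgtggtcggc

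A promoter was matched for 22 of the 39 symbols, 24 promoters in all. The Hoxb8 run held the PBX-HOX letters, 2 TATA letters and 1 CCAAT, while the runs of Hoxa5 and Hoxd10 held 1 CCAAT each and that of Hoxa9 none of the 4 motifs. Over the 24 promoters, CCAAT stood in 58.3% against 33.9% of all 32851 promoters in the table, TGATNNAT in 16.7% against 7.68%, TATAAA in 16.7% against 12.4% and TAATTA in 8.33% against 4.84%. Their median GC content was 58.6% against 52.4%, with a median of 12.5 CpG dinucleotides against 6. CpG number did not follow the boundary in the 4 printed runs, with 28 for Hoxa5, 12 for Hoxb8, 3 for Hoxa9 and 20 for Hoxd10. These matches describe the letters and are not evidence of binding.

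Paralogs 1 to 3 gave a small signal in both sets of mice. The 8 rows of this group held 2 to 9 counts per digit 1 mouse and 32 to 65 per digit 3 mouse. Hoxa3, which acts in the caudal hindbrain and in the structures of the pharyngeal arches, had 0 counts in the digit 1 mice and 15, 12, 6, 13, 10 and 15 in F3-609, F3-612, F3-908, P3-612, P3-904 and P3-907. It was at least 14.4-fold higher with digit 3, set against 3 counts over the 4 digit 1 libraries together (adjusted p = 9.55e-04 by edgeR). Hoxb3 had 0 counts with digit 1 and 6, 3, 8, 12, 13 and 13 counts in the same order of digit 3 mice, at least 11.2-fold higher, but did not pass the filter for the test between digits.

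Hoxb1, which patterns the early hindbrain, was at the limit of detection. It had 0, 0, 1 and 2 counts in F1-622, F1-624, F1-918 and P1-623 and 0 to 7 in the digit 3 mice, so that the sets overlapped. Hoxb2, a hindbrain segment gene, overlapped as well, with 4, 0, 2 and 2 counts against 3, 4, 14, 0, 10 and 8. Its paralog Hoxa2, the gene of the second hindbrain segment, did not overlap, with 0 in all digit 1 mice and 3, 1, 11, 16, 4 and 7 in the digit 3 mice. Hoxd1 had 0 to 3 counts with digit 1 and 2 to 7 with digit 3, and Hoxd3 had 0 against 2 to 5. None of these 5 entered the test.

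Paralogs 4 to 8 carried most of the signal, with 16 rows that held 195 to 362 counts per digit 3 mouse and 1 to 6 per digit 1 mouse. Hoxb5 had 43, 64 and 69 counts in F3-609, F3-612 and F3-908, 85, 87 and 99 in P3-612, P3-904 and P3-907, and 0 in the digit 1 mice. Hoxa5, known for its part in the brainstem control of breathing, had 47, 45, 47, 72, 54 and 52 in the same order, and again 0 in the digit 1 mice. These 2 paralogs made up 39.0% of all Hox counts of the digit 3 mice. Hoxb5 was at least 90.8-fold higher with digit 3 (adjusted p = 4.33e-06) and Hoxa5 at least 64.4-fold (adjusted p = 9.23e-06).

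The paralogs 4 act at the border of hindbrain and spinal cord. Hoxc4 had 29, 18 and 28 counts with FTY720 and 29, 40 and 27 with placebo among the digit 3 mice, and 0 with digit 1, at least 34.8-fold higher (adjusted p = 1.01e-04). Hoxa4 had 16, 11 and 12 against 24, 25 and 24, also with 0 in digit 1 mice, at least 22.8-fold higher (adjusted p = 2.08e-04). Hoxb4 was the exception among the 8 called rows, because 3 digit 1 mice had reads. It had 1, 1, 5 and 0 counts in F1-622, F1-624, F1-918 and P1-623 and 20, 19, 14, 22, 14 and 28 in the digit 3 mice. The log2 fold change was 3.27 (SE 0.57, adjusted p = 1.77e-03), with no overlap between the sets, and 4.47 without F1-918. Hoxd4 (ENSMUSG00000115956) had 1 count in F3-612 and 1 in P3-612, and the second Hoxd4 row (ENSMUSG00000101174), which overlaps it and reaches further into Hoxd3, had 0 in all mice, so the level of Hoxd4 is uncertain.

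Paralogs 6 to 8 are known mostly from spinal levels, and in these libraries they came chiefly from the Hoxb cluster. Whether their reads came from spinal cord or from hindbrain was not tested. Hoxb6 had 12, 26, 35, 32, 22 and 45 counts in the digit 3 mice, at least 35.0-fold higher (adjusted p = 3.50e-04). Hoxb8, known for its part in grooming behaviour, had 11, 21 and 21 counts with FTY720 and 41, 31 and 36 with placebo, at least 32.7-fold higher (adjusted p = 1.62e-04). Both had 0 counts in all digit 1 mice. Hoxb7, between them on the chromosome, was much lower at 4, 3, 7, 15, 4 and 8 counts. Hoxc5 had 8, 7, 15, 33, 4 and 21, and was at least 17.9-fold higher than in the digit 1 mice without entering the test. Hoxa6, Hoxa7, Hoxc6 and Hoxd8 did not exceed 4 counts in any mouse, and Hoxd8 overlapped between digits, with 1, 0, 1 and 1 counts against 0 to 4.

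Paralogs 9 to 13, the genes of the lumbar, sacral and tail levels and of the limbs, were nearly absent. The 16 rows together held 0 to 3 counts per digit 3 mouse and 0 to 1 per digit 1 mouse, and 13 of them were at 0 throughout. The counts were those of Hoxd13 (3 in F3-609, 2 in F3-612 and 1 in P3-904), Hoxb9 (2 in F3-908) and Hoxc13 (1 in F1-622). With Hoxc8 (1 in P1-623), Hoxc13 was the only row with reads in a digit 1 mouse and none in a digit 3 mouse. A count of 0 allows up to 3 counts, or 0.162 to 0.212 CPM, which covers counting error only.

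The most posterior gene with 3 counts or more in every digit 3 mouse was Hoxa5 in the Hoxa cluster, Hoxb8 in the Hoxb cluster and Hoxc5 in the Hoxc cluster, and no Hoxd gene reached this level. Hoxa and Hoxb thus differed in where their signal ended. Hoxa fell from 45 to 72 counts at Hoxa5 to 0 to 2 at Hoxa6, whereas Hoxb6 and Hoxb8 still had 11 counts or more in every digit 3 mouse. With 1 count as the limit, Hoxd3 was the most posterior Hoxd gene, and the other clusters kept theirs. With 10 counts as the limit, Hoxc4 took the place of Hoxc5. In the digit 1 mice the highest paralog that had 3 counts in any mouse was Hoxb4, with 5 in F1-918.

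By cluster, the digit 3 mice had 100 to 244 counts for Hoxb, 75 to 132 for Hoxa, 26 to 64 for Hoxc and 5 to 14 for Hoxd. These made up 53.4%, 29.6%, 13.5% and 3.42% of their Hox counts. Hoxd3 and a Hoxd4 row share exon bases on the same strand, and what this did to the Hoxd counts was not tested.

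Levels of different genes were compared per length, as deposited FPKM (fragment counts scaled to gene length and library size). In the digit 3 mice Hoxb5 had a median of 1.62 FPKM (0.918 to 1.89) and Hoxa5 1.48 FPKM (1.39 to 2.25), and these ranges overlapped. Hoxb6 followed at 0.861 FPKM (0.363 to 1.22), Hoxa4 at 0.700 (0.400 to 0.898), Hoxc4 at 0.652 (0.406 to 0.892), Hoxb8 at 0.571 (0.248 to 0.912) and Hoxb4 at 0.446 (0.312 to 0.582). The lowest mouse of Hoxa5 was above the highest of Hoxb6 and of every lower gene. The lowest of Hoxb5 was above the highest of Hoxa4, Hoxc4, Hoxb8 and Hoxb4, but not of Hoxb6. From Hoxb6 to Hoxb4, each gene overlapped with the next in this order. Of the other rows, Hoxc5 (0.220 FPKM) and Hoxb7 (0.210 FPKM) had the highest medians, and no row besides those named had a median above 0.170 FPKM.

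**Figure D2:**
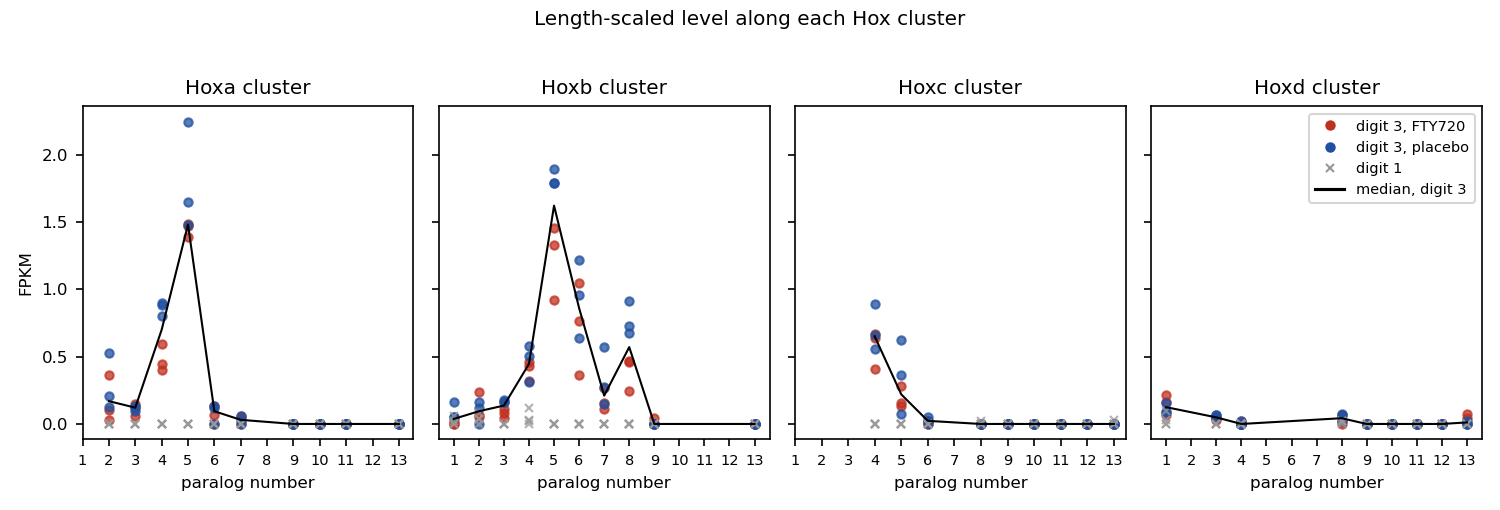
Deposited FPKM (vertical axis) against paralog number (horizontal axis) in each cluster, with 1 point per mouse, red for FTY720 and blue for placebo among digit 3 mice and grey crosses for digit 1 mice. The line joins the medians of the 6 digit 3 mice, which peak at paralog 5 in Hoxa (1.48 FPKM) and Hoxb (1.62 FPKM) and at paralog 4 in Hoxc (0.652 FPKM), with a second rise at Hoxb8 (0.571 FPKM).

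The second question was whether FTY720 went with other Hox levels than placebo among the digit 3 mice, 3 mice against 3. The filter kept 10 rows, and all 10 had a lower fitted level with FTY720. These rows come from the same mice and are not independent, so they are not 10 separate results. At an unadjusted p below 0.05, 4 of the 10 passed edgeR's test, each lower with FTY720, and none passed after adjustment over all genes (adjusted p = 0.654 for each of the 4). DESeq2 also gave 0 after adjustment, with 2 genes at an unadjusted p below 0.05. Of all genes tested, 7.27% passed unadjusted and 4.49% were lower with FTY720. Among the 4 genes, Hoxb3 passed the filter on low counts through the placebo mice alone. Without the filter, 3 of 24 rows passed edgeR's test unadjusted (Hoxb1, Hoxb5 and Hoxb8), as did 6.83% of all genes. The median log2 fold change of the 10 rows was −0.47, against −0.005 over all genes tested. Groups of 3 against 3 cannot give a two-sided exact permutation p below 0.1 for a single gene.

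Hoxb8 had 0.655, 1.22 and 1.25 CPM in F3-609, F3-612 and F3-908 and 2.43, 1.79 and 1.95 CPM in P3-612, P3-904 and P3-907. Every placebo mouse was above every FTY720 mouse, as for 6.47% of all genes tested, at a log2 fold change of −0.97 (SE 0.34). Hoxb5 had 2.56, 3.71 and 4.11 CPM against 5.04, 5.01 and 5.35, again with no overlap, at −0.56 (SE 0.22). Hoxa4 had 0.952, 0.639 and 0.716 CPM against 1.42, 1.44 and 1.30, at −0.84 (SE 0.33). Hoxb3 had 0.357, 0.174 and 0.477 CPM against 0.712, 0.749 and 0.703, at −1.08 (SE 0.47). Its counts were 6, 3 and 8 against 12, 13 and 13, and without the filter its unadjusted p was 0.084 by edgeR. In Hoxa4 and Hoxb3 the 3 placebo mice lay close together and the spread came from the FTY720 mice.

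Hoxa5 did not overlap either, with 2.80, 2.61 and 2.80 CPM under FTY720 and 4.27, 3.11 and 2.81 under placebo, but the closest values differed little and it missed the threshold at −0.30 (SE 0.24). Hoxb1, tested only without the filter, had 1, 0 and 0 counts under FTY720 and 2, 2 and 7 under placebo. The remaining tested rows overlapped between the groups. Hoxc5 had a log2 fold change of −0.89 (SE 0.67), which was −0.21 without P3-612 and −1.37 without P3-904, with both its lowest level (0.230 CPM in P3-904) and its highest (1.96 CPM in P3-612) among the placebo mice. Hoxb6 had −0.37 (SE 0.42), Hoxc4 −0.30 (SE 0.33), Hoxb4 −0.21 (SE 0.37) and Hoxa3 −0.14 (SE 0.45). Leaving out 1 mouse at a time gave −0.43 to −0.10 for Hoxa5, −0.74 to −0.05 for Hoxb6, −0.43 to −0.10 for Hoxc4, −0.43 to −0.01 for Hoxb4 and −0.44 to 0.15 for Hoxa3.

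**Figure D3:**
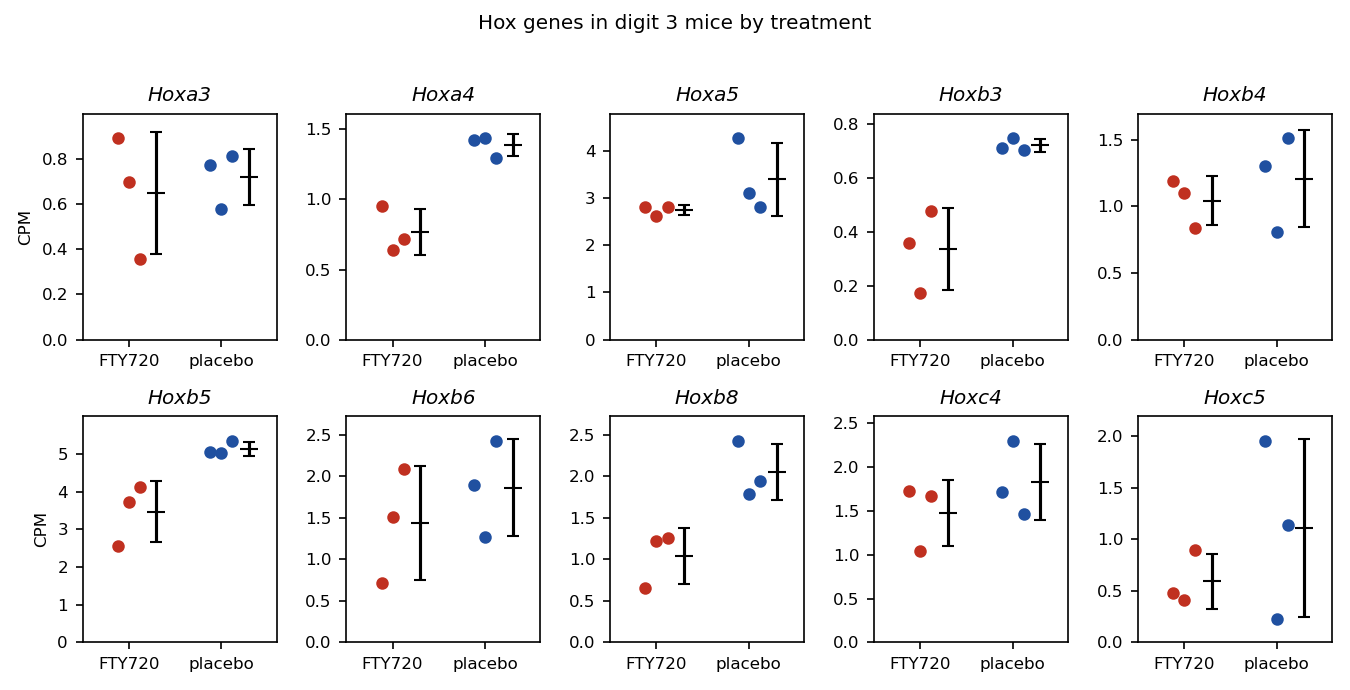
CPM (vertical axis, from 0) of the 10 Hox rows tested within the digit 3 mice, with 1 point per mouse, red for FTY720 and blue for placebo, and the mean ± SD (n = 3) beside each group. The groups did not overlap in Hoxa4, Hoxa5, Hoxb3, Hoxb5 and Hoxb8, and overlapped in the other 5, while 6.47% of all genes tested had no overlap and lower values with FTY720.

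The summed level of the 40 rows was 14.2, 14.8 and 17.8 CPM in F3-609, F3-612 and F3-908 and 24.7, 19.4 and 22.3 CPM in P3-612, P3-904 and P3-907. The means were 15.6 ± 1.90 and 22.1 ± 2.69 CPM (SD, n = 3 each), a ratio of 0.705. P3-612 had the highest sum and also the highest summed level of 5 red blood cell genes, at 40.2 CPM against 2.97 to 17.6 in the other digit 3 mice. Without P3-612, only Hoxb5 kept an unadjusted p below 0.05 (4.96% of all genes), while the log2 fold changes were −1.08 for Hoxb3, −0.81 for Hoxa4, −0.82 for Hoxb8 and −0.57 for Hoxb5. Without F3-609 it was Hoxa4 alone (2.13% of all genes), with log2 fold changes of −1.03 for Hoxa4, −1.13 for Hoxb3, −0.73 for Hoxb8 and −0.39 for Hoxb5. Without P3-907 it was Hoxb8 alone (2.20%), with −1.01 for Hoxb8, −1.10 for Hoxb3, −0.89 for Hoxa4 and −0.53 for Hoxb5. When trends on GC content and gene length were removed from each library, Hoxb5 and Hoxb8 stayed below 0.05, while Hoxa4 at −0.58 and Hoxb3 at −1.01 missed it.

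The hindbrain and spinal cord list overlapped between the treatments within digit 3, with summed levels of 96.8, 68.6 and 73.0 CPM in F3-609, F3-612 and F3-908 and 65.7, 89.6 and 72.4 CPM in P3-612, P3-904 and P3-907. The cerebellar list overlapped too, at 985, 916 and 1005 CPM against 953, 918 and 926. Of the 10 tested genes of the hindbrain and spinal cord list, Lbx1 alone had an unadjusted p below 0.05. Lbx1, a homeobox gene of dorsal hindbrain and spinal cord neurons, had 34, 39 and 45 counts with FTY720 and 78, 66 and 74 with placebo, at a log2 fold change of −0.83 (SE 0.22). Slc6a5, the glycine transporter of inhibitory neurons of the same regions, had 60.2, 46.2 and 48.0 CPM against 40.4, 62.3 and 46.4 and overlapped. The part of region content in the Hox values within digit 3 was not tested.

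Over all 10 mice, with 6 given FTY720 and 4 placebo, none of the 8 Hox rows tested had an unadjusted p below 0.05 by edgeR or by DESeq2, against 2.61% of all genes. In this comparison the digit was not in the model, and 3 of the 6 FTY720 mice but only 1 of the 4 placebo mice were digit 1 mice. With the digit as a covariate, Hoxa4, Hoxb5 and Hoxb8 passed an unadjusted p of 0.05, each lower with FTY720, as did 12.8% of all genes in either direction. The difference between digits was not shown to depend on treatment, with no adjusted interaction p below 0.05 by edgeR among the 8 members tested and only 1 placebo mouse with digit 1.

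The clusters also hold 46 rows that are not Hox genes by the symbol rule, of which 26 had 0 counts in all mice and 6 were higher in every digit 3 mouse than in every digit 1 mouse (2.82% of all rows of the table). Haglr, the long non-coding RNA that starts beside Hoxd1, was the only one to enter the test between digits. It had 2, 0, 1 and 2 counts in F1-622, F1-624, F1-918 and P1-623 and 10 to 25 in the digit 3 mice, at a log2 fold change of 3.34 (SE 0.53, adjusted p = 9.66e-04). It thus had more assigned reads than any Hoxd row. Hoxaas2, a transcript of the Hoxa cluster, had 0 counts with digit 1 and 8, 9, 10, 8, 19 and 9 with digit 3. Hotairm1, a long non-coding RNA known from the activation of the anterior Hoxa genes, overlapped between digits at 0, 0, 3 and 3 against 2 to 18, with the 18 in P3-612. The hairpin rows of the miR-10 and miR-196 families had 0 counts except for 1 read at Mir10b, in libraries not made for small RNA.

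Of the nearest protein-coding genes on each side of the 4 clusters, 16 in all, 14 were tested and 3 were higher with digit 3 by adjusted p, near the 13.9% of all genes tested. Evx2, the homeobox gene next to Hoxd13, had 0, 0, 0 and 4 counts in F1-622, F1-624, F1-918 and P1-623 and 11, 10, 20, 13, 16 and 10 in the digit 3 mice, at a log2 fold change of 3.41 (SE 0.73, adjusted p = 0.00567). It was therefore detected beside posterior Hoxd genes that were at or near 0. Evx1, next to Hoxa13, had 0, 0, 0 and 2 counts against 3, 11, 16, 5, 9 and 7. Both are known from spinal cord and hindbrain interneurons. The other 2 that rose, Hnrnpa3 (0.34, SE 0.08) and Lnpk (0.32, SE 0.11), encode an RNA-binding protein and a protein of the endoplasmic reticulum. Among those that missed the threshold, Skap2 (adjusted p = 0.894), beside the Hoxa cluster, and Skap1 (adjusted p = 0.810), beside the Hoxb cluster, had similar counts in both sets of mice, at 254 to 364 and 19 to 25.

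Of the HOX cofactors, 9 of 9 were tested, and 1 was higher and 3 were lower with digit 3 at an adjusted p below 0.05 by edgeR, the threshold used for the lists that follow and passed by 28.4% of all genes tested. Meis1 had 5.10 ± 0.752 CPM (SD, n = 4) with digit 1 and 17.7 ± 2.10 CPM (SD, n = 6) with digit 3, a log2 fold change of 1.805 (SE 0.15). Pbx2 (−0.36, SE 0.10), Meis2 (−0.26, SE 0.08) and Pknox2 (−0.28, SE 0.09) fell slightly. In the retinoic acid pathway, 12 of 14 genes were tested, with 2 higher and 2 lower. Aldh1a1, a retinaldehyde dehydrogenase, rose by 1.05 (SE 0.09) and Cyp26b1, which degrades retinoic acid, by 0.74 (SE 0.13), while the retinoid X receptors Rxrg (−0.70, SE 0.10) and Rxrb (−0.51, SE 0.13) fell. Of 8 anterior-posterior patterning factors 5 were tested and none rose. Egr2, a hindbrain segment gene of the embryo (−1.74, SE 0.42), and Gbx2, of the embryonic midbrain-hindbrain border (−0.75, SE 0.25), fell. Those embryonic roles do not show which adult cells the reads came from. All 17 Polycomb and Trithorax genes were tested, with 5 higher and 3 lower. The Polycomb methyltransferase Ezh2 (0.77, SE 0.17), its partner Suz12 (0.51, SE 0.09) and the demethylase Kdm6a (0.78, SE 0.21) were among those that rose and the Trithorax subunit Men1 (−0.38, SE 0.10) among those that fell. The median log2 fold change was −0.26 for the cofactors, −0.14 for the retinoic acid genes and 0.12 for the Polycomb and Trithorax genes, against −0.01 over all genes tested.

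**Figure D4:**
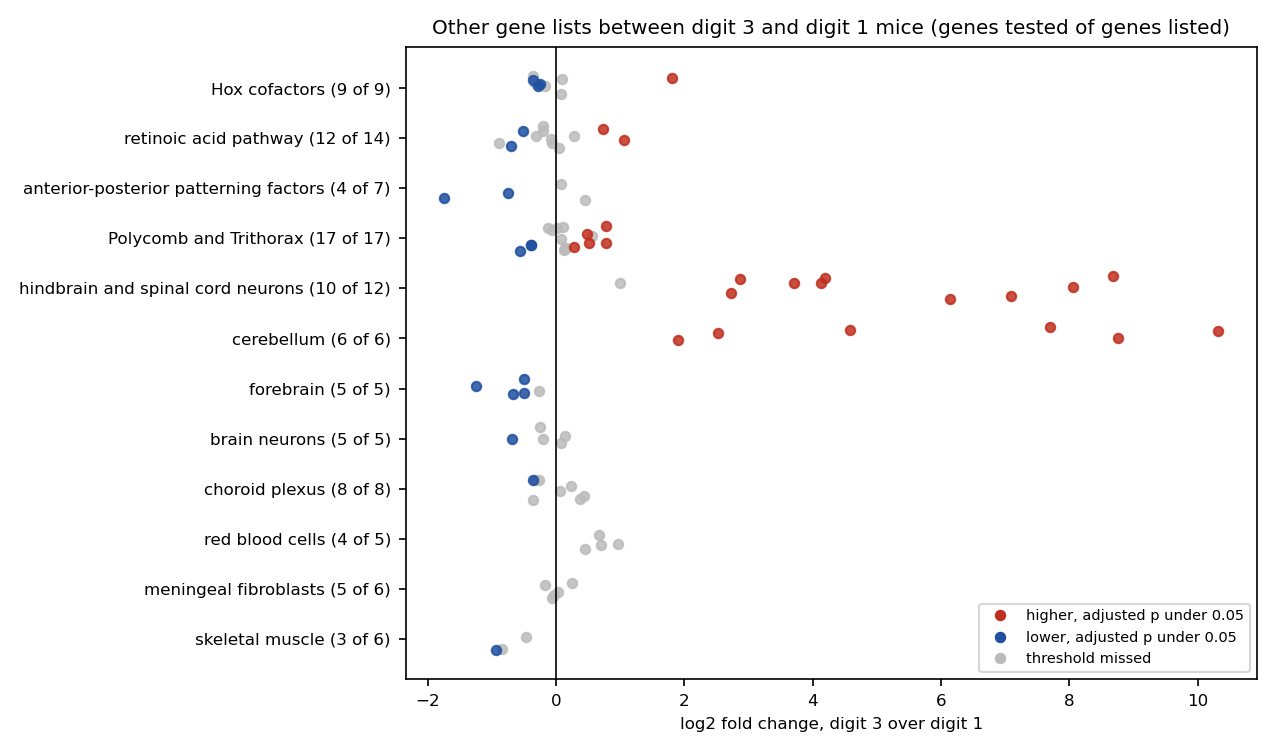
Log2 fold change of digit 3 over digit 1 mice by edgeR (horizontal axis) for each tested gene of the other lists (vertical axis), red for genes higher and blue for genes lower at an adjusted p below 0.05. The hindbrain and spinal cord genes (9 of 12 listed) and the cerebellar genes (6 of 6) lie to the right, the forebrain genes (4 of 5 lower) to the left, and the values of genes with 0 counts in digit 1 mice depend on the prior count.

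No gene of the marker lists for choroid plexus, muscle, meninges or blood passed as higher with digit 3. At an adjusted p below 0.05, 1 of 8 choroid plexus genes fell (Ttr, −0.36, SE 0.12). Of 6 skeletal muscle genes 3 were tested and 1 fell (Acta1, −0.93, SE 0.21). Of 6 meningeal fibroblast genes 5 were tested, and of 5 red blood cell genes 4. None of these passed in either direction. Of the 5 genes of brain neurons 1 fell (Slc17a7, −0.68, SE 0.11). The trapped gene Slc20a2 had 8.24 ± 1.43 CPM (SD, n = 4) with digit 1 and 13.9 ± 1.85 CPM (SD, n = 6) with digit 3 (0.73, SE 0.15, adjusted p = 0.00463).

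Between the treatments within digit 3, no gene of these lists passed after adjustment by edgeR. At an unadjusted p below 0.05, which 7.27% of all genes tested passed, were 2 of 12 retinoic acid genes and 3 of 17 Polycomb and Trithorax genes, and 1 gene each of 10 for hindbrain and spinal cord, 6 for cerebellum, 5 for forebrain and 5 for brain neurons. Cyp26b1 had 12.2, 11.03 and 11.6 CPM with FTY720 and 14.7, 15.8 and 14.9 with placebo, without overlap, at −0.37 (SE 0.13). Rxrg had a lower value as well (−0.33, SE 0.14). Of the Polycomb and Trithorax genes, Ring1 (−0.42, SE 0.14) and Men1 (−0.32, SE 0.12) had lower values and Rnf2 (0.32, SE 0.14) a higher one with FTY720. In the region lists, Cbln3 of the cerebellum had 0.28 (SE 0.10), Emx1 of the forebrain −0.68 (SE 0.26) and Rbfox3 of neurons −0.28 (SE 0.10). No cofactor had an unadjusted p below 0.05, and Slc20a2 had a log2 fold change of −0.0008.

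Reads may be shared with transcripts that overlap a Hox gene. The strand setting of the counting is not given in the sources used here, and it matters only for overlap on the other strand. In GENCODE M21, 52.9% of the exon bases of Hoxb3 and 62.8% of those of Hoxd3 were shared with another gene, and 27.1% for Hoxa3, 27.3% for Hoxb2 and 16.0% for Hoxa4. The share was 20.4% for Hoxa7, 15.0% for Hoxa2, 35.0% for Hoxa11 and 52.3% for the Hoxd4 row with 0 counts. The part on the same strand, which no strand setting resolves, was 62.3% for Hoxd3, 52.3% for that Hoxd4 row, 15.0% for Hoxa2 and 8.01% for Hoxa3. It was 0 for Hoxb3, Hoxb2, Hoxa4, Hoxa7 and Hoxa11. Values of these genes are uncertain to that extent. Hoxb5 shared 3.6% and Hoxc5 5.4%, while Hoxa5, Hoxb4, Hoxb6, Hoxb7, Hoxb8 and Hoxc4 shared none.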

How the data were processed

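RNA of 10 mouse brains was sequenced with the NEBNext Ultra RNA kit. Per the labels, the authors called bases with CASAVA 1.8, trimmed reads with fastp, aligned them to GRCm38/mm10 with HISAT2 2.0.5 and counted with featureCounts 1.5.0-p3. DESeq2 1.20.0 is also named in their processing notes. The deposited table holds raw counts per gene and, beside them, FPKM computed by the authors. Columns were matched to mice by name. FPKM was used only to compare genes, and counts for everything else. CPM used TMM effective library sizes.

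Tests were edgeR 4.0.16 quasi-likelihood fits (R 4.3.3) across all genes kept by filterByExpr, with Benjamini-Hochberg adjustment over them. Digit 3 was compared with digit 1 in all 10 mice with treatment as a covariate, FTY720 with placebo in the 6 digit 3 mice, and FTY720 with placebo in all mice without a covariate. As nothing states that the mice were housed or processed separately, p-values measure the spread between these libraries. Detection required 3 counts, and bounds set a sum of 0 to 3 counts over the 4 digit 1 libraries. The scripts were tested on simulated data. Alternatives were RLE scaling, DESeq2 1.42.0, no filter, a filter of 10 counts in every mouse, other covariates and samples, leaving out each mouse, other detection limits and, added after seeing the data, removal of trends on GC content and gene length (mgcv 1.9.3, GC known for 39 of the 40 rows).

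The members and lists were chosen with earlier results of these data known. The named genes were all Hox rows, rows inside the clusters and the 2 nearest protein-coding genes on each side, list genes past an adjusted p of 0.05 between digits (at most 4 per list) or an unadjusted p of 0.05 within digit 3, and Slc20a2. Values named outside this rule, such as Slc6a5 within digit 3, were chosen after they were seen. The values of 2 genes, 1 of them a Hox row, are not reported here. Gene coordinates were checked against GENCODE M21, which gave the same ones for 38 of the 40 rows.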

Additional observations from a re-analysis of the deposited data

Results flagged for a closer look

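In 26 groups of 4 or 6 mice of 1 Hox row or of the sum, 3 had a mouse far from the others. The cut-off is meant to pass about 1 in 20 independent groups of normal values. These groups share the same mice and hold low counts, so 3 of 26 is not read against that rate. P3-612 stood apart among the 6 digit 3 mice for Hoxa5 (4.27 CPM, with the next at 3.11) and for Hoxb7 (0.890 CPM, next 0.433), and P3-907 for Hoxb1 (0.379 CPM, next 0.119, on 7 counts). Of the 8 Hox rows tested for an effect of treatment on the difference between digits, none had an adjusted p below 0.05 by edgeR.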

How the results depend on the processing

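Each of the 8 genes tested between digits kept its direction and its call in the alternatives in which it was tested. For the 7 with 0 counts in every digit 1 mouse the direction could not change, so their stability is no separate support. Only Hoxb4 had reads in digit 1 mice. Their number was 7 to 10 when 1 mouse was left out and 13 without the filter, and 10 counts in every mouse left no Hox row to test, here or over all mice. For FTY720 within digit 3, genes at an unadjusted p below 0.05 were 4 in the main test, 2 by DESeq2, 2 with the GC and length trends removed, and 1 to 3 when 1 mouse was left out, including 2 without F3-612 (Hoxb5 and Hoxb8). Hoxa3 ranged from −0.44 to 0.15 (log2 fold change) when 1 mouse was left out, above 0 only without F3-908, and without P3-904 Hoxc5 passed, where 21.7% of all genes did. Over all mice, the count of 0 became 1 without the filter (Hoxb1), 3 with the digit as a covariate and 0 to 2 when 1 mouse was left out, with 2 (Hoxb3 and Hoxb8) without P1-623. The most posterior Hoxc paralog moved from 5 to 4 at 10 counts. Where a mechanism is not shown by the setting itself, the cause was not tested. Counts below 10 in most Hox rows limit what could be detected. No paired analysis was possible because only 1 number, 612, is shared by an FTY720 and a placebo name.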
